A study of Mus musculus with 34 samples.

Results

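The potassium channel genes are the 82 symbols beginning with Kcn that the deposited peak tables name as the nearest gene of at least 1 peak, of 18835 symbols in all. They were taken by name, not by any measured value. For 75 of them, at least 2 peaks agreed on the position from which the authors measured distance, which is called the gene point here. The same step placed 16001 of the 18835 symbols, and these 16001 genes, members included, are the background for every share below. Kcna7, Kcng4, Kcnj15, Kcnj16, Kcnk3, Kcnk6 and Kcns1 had no such position and enter none of the counts, although a SMARCA4 hindbrain peak lay 0.809 kb from the start of Kcna7 and a SMARCA4 heart peak 0.253 kb from that of Kcnk6. A further 16 Kcn symbols of the RefSeq gene table, Kcnh7, Kcnj9 and Kcnt1 among them, were never named as nearest gene.

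The study mapped FLAG-tagged coactivators by chromatin immunoprecipitation and sequencing. SMARCA4, the ATPase of the SWI/SNF chromatin remodelling complex, was mapped in 7 tissues of mouse embryos of day 11.5, of which forebrain, midbrain, hindbrain and neural tube are neural and face, limb and heart are not, and in embryonic stem cells (ESC). SMARCC2, a scaffold subunit of that complex, was mapped in face and hindbrain, the acetyltransferase EP300 in face and ESC, and NCOA1 and NCOA2, coactivators of nuclear receptors, in hindbrain. For limb and forebrain there are lists of H3K4me1, H3K4me3 and H3K27me3, and for limb also one of H3K27ac. The FLAG embryos carried a FLAG knock-in on a 129/C57BL/6 background, the ESC came from the same line, and the histone samples were CD1 embryos with no tag. Each list is 1 library, from tissue pooled over about 150 embryos (SMARCA4 in face, forebrain, hindbrain, neural tube and limb, and all histone samples) or about 300 (the other FLAG tissues and their controls). No comparison between tissues therefore has a replicate, no p-value was computed, and the 95% intervals given (exact binomial for shares, exact Poisson for counts) cover counting error only.

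Several labels are in doubt. The sample titled SMARCA4 hindbrain carries a tissue tag of forebrain. EP300, NCOA1, NCOA2 and SMARCC2 samples have SMARCA4 as the knock-in in their genotype tag, and SMARCA4 ESC is described as embryo tissue. Heart and hindbrain are the tissues named in the protocol of the histone samples, whose titles give limb and forebrain. Controls made for SMARCA4 in neural tube, heart, limb and forebrain were not analysed here, and what the controls labelled as input hold is not stated further. The authors' false discovery rate was at least 50% for all peaks of SMARCA4 midbrain and for 52.3% of those of EP300 face. Heart muscle markers went with the heart label: 5 of 6 placed (Gata4, Nkx2-5, Tbx20, Tnnt2 and Actc1) had a heart SMARCA4 row within 1 kb. None had a neural tube row there. Of 7 neural markers, 6 had a neural tube row within 1 kb (all genes 52.4%) and 1 a heart row (all genes 20.1%). The SMARCA4 midbrain and EP300 face controls each also had a row at 5 of these 7, so the neural markers say little about the label. SMARCA4 had a row within 1 kb of 5 of the 7 neural markers in face, 4 in forebrain, 1 in hindbrain and 0 in midbrain. All-gene shares there were 17.3% in hindbrain and 1.94% in midbrain, so 7 starts cannot decide about these labels. Within 100 kb, 5 of 7 neural markers had a hindbrain row (all genes 58.9%) and 4 a midbrain row (all genes 19.8%). Of the 6 placed heart muscle markers, 3 had a hindbrain row and 0 a midbrain row within 100 kb. The SMARCA4 lists hold between 1513 and 35099 rows, and their median row width runs from 158 bp in ESC to 3100 bp in forebrain. Counts are therefore read against the background of the same list, not across lists.

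Potassium channels let potassium leave the cell and so set the resting potential and end the action potential. Pore-forming subunits fall into voltage-gated Kv channels (Kcna to Kcnd, with the silent Kcnf, Kcng, Kcns and Kcnv that modify them), the ether-à-go-go (EAG) family Kcnh, the KCNQ channels that carry the M current in neurons and the slow repolarising current in heart, channels opened by calcium or sodium (Kcnma, Kcnn, Kcnt), the inward rectifiers Kcnj, and the tandem-pore leak channels Kcnk. The Kcnab, Kcne, Kcnip and Kcnmb genes encode auxiliary subunits. H3K27me3 is the mark of Polycomb repression, H3K4me3 marks gene starts, and starts that carry both are common among developmental genes before their cell type matures.

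Gene starts of this family differ in their density of CG dinucleotides, and the states described next differed between close neighbours. These RefSeq promoters (GRCm38.p6, 250 bases before to 50 after the start, on the gene's strand, with CG dinucleotides in capitals) show that contrast: Kcnh2 and Kcnd2 as examples with both marks in limb, and 2 neighbouring pairs (Kcnj5 and Kcnj1, Kcna2 and Kcna10) in which the former had both marks and the latter neither. They were chosen after their values were seen. RefSeq starts need not be the authors' gene points, whose positions are in mm9.
Kcnh2: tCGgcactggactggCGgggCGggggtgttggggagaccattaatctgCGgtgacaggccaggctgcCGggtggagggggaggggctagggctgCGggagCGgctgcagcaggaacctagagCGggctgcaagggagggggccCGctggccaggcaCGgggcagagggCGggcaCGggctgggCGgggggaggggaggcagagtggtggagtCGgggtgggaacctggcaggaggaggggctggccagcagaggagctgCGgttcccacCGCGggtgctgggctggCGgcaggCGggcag
Kcnd2: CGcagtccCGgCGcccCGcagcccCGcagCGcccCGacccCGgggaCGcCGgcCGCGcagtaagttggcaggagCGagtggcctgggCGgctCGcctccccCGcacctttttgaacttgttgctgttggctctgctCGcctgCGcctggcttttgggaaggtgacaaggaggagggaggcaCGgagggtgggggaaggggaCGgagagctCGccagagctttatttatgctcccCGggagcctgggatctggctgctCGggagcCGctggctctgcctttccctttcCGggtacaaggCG
Kcnj5: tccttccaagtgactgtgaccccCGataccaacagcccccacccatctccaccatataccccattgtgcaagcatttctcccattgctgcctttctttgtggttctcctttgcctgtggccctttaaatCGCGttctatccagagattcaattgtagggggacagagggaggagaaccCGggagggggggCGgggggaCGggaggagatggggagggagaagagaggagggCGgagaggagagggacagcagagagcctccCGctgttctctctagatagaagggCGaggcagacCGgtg
Kcnj1: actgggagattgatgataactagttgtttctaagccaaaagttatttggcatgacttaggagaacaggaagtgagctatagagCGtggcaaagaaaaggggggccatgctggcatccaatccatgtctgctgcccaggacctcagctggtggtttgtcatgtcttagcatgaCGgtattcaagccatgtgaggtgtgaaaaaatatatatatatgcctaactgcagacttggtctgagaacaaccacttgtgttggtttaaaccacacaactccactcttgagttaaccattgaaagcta
Kcna2: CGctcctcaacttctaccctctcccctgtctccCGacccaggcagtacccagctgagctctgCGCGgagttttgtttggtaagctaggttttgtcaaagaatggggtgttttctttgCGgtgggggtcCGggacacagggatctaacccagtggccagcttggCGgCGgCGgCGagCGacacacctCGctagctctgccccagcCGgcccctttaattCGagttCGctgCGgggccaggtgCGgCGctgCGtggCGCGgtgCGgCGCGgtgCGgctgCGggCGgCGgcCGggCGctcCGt
Kcna10: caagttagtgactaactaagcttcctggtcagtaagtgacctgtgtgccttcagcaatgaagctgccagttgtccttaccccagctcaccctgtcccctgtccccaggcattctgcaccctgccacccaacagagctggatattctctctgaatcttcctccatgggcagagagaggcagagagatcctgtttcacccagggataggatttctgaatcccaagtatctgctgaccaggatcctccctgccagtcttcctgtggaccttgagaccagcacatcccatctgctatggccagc

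The pairs differ in sequence and in state. The Kcna2 promoter (chr3:107101317-107101616, plus strand) holds 31 CG and that of Kcna10 (chr3:107182893-107183192, plus strand) holds 0. Kcnj5 (chr9:32344295-32344594, minus strand) has 10 and Kcnj1 (chr9:32393735-32394034, plus strand) has 2. Kcnh2 (chr5:24329542-24329841, minus strand) has 19 and Kcnd2 (chr6:21215096-21215395, plus strand) has 26.

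Polycomb marks lay at the starts of most members. H3K27me3 had a row within 1 kb of the gene point in limb at 55 of 75 members (73.3%, interval 61.9% to 82.9%), where the background was 27.5%. In forebrain it did so at 37 of 75 (49.3%, 37.6% to 61.1%), against a background of 17.5%. H3K4me3 was at the background: 57 of 75 in limb (76.0%, background 72.0%) and 53 of 75 in forebrain (70.7%, background 70.7%). The same held for H3K4me1, with 57 of 75 in limb (background 69.2%) and 49 of 75 in forebrain (background 58.8%). H3K27ac, the mark of active elements, went the other way. It was present in limb at 7 of 75 starts (9.33%, 3.84% to 18.3%), against a background of 52.7%, and those 7 were Kcna3, Kcna6, Kcnj2, Kcnk1, Kcnmb4, Kcnn1 and Kcnn2. The 3 histone input lists had no row within 1 kb of a member.

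**Figure D1:**
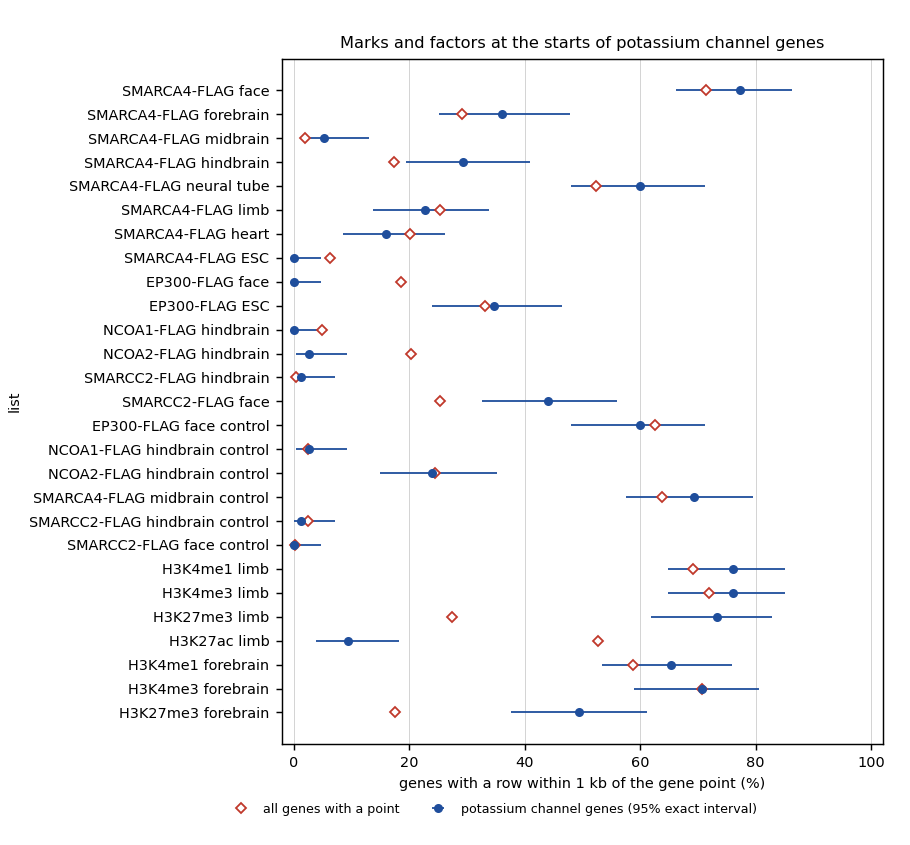
Share of the 75 placed potassium channel genes (filled circles, bars are 95% exact binomial intervals) and of all 16001 placed genes (open diamonds) with at least 1 row of each list within 1 kb of the gene point, in percent. Members lie far above all genes for H3K27me3 (73.3% against 27.5% in limb) and far below for limb H3K27ac (9.33% against 52.7%).

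Both marks together, H3K4me3 and H3K27me3, were found in limb at 50 of 75 starts (66.7%, 54.8% to 77.1%, background 23.8%) and in forebrain at 33 of 75 (44.0%, 32.6% to 55.9%, background 15.3%). H3K4me3 without H3K27me3, the state of 48.1% of all genes in limb, was seen at 7 members: Kcna3, Kcna5, Kcna6, Kcnf1, Kcnj11, Kcnmb4 and Kcns2. Kcnd3, Kcnh6, Kcnh8, Kcnk9 and Kcnk15 had H3K27me3 without H3K4me3 in limb (5 of 75, 6.67%, 2.20% to 14.9%, all genes 3.66%). At 13 members (17.3%, all genes 23.6%) neither mark was found in either tissue, among them Kcna10, Kcnb2, Kcne2, Kcnj1, the renal inward rectifier, Kcnj6, a neuronal G-protein-gated rectifier, and Kcnk18. For Kcnd3 and Kcnj6, peaks agreed on 2 positions each, so their states hold only for the position used. Limb H3K4me3 covered 2.69 kb within 10 kb to each side of that of Kcnd3. Where limb H3K27me3 was present it was wide: within 10 kb to each side of the point the members' median was 6.12 kb under the mark, with a range of 0.907 kb to 17.9 kb, and the median over the 4402 genes with the mark was 4.41 kb. The widest were Kcnj4 with 17.9 kb, Kcnk15 with 14.6 kb, Kcnc1 with 12.5 kb and Kcnma1, the large-conductance calcium-activated channel, with 12.4 kb.

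Nearly all members with H3K27me3 in forebrain also had it in limb, and a smaller part of those with it in limb had it in forebrain. Of the 55 with H3K27me3 in limb, 20 (36.4%) had no row in forebrain, and the figure over all genes was 44.3%. Of the 37 with it in forebrain, 2 lacked it in limb (5.41%, all genes 12.3%), namely Kcnmb4 and Kcns2. Both marks in limb with H3K4me3 alone in forebrain were found at 16 members (21.3%, all genes 9.36%): Kcnc2, Kcnd2, Kcne1l, Kcnh2, Kcnh5, Kcnip1, Kcnip2, Kcnip3, Kcnip4, Kcnk2, Kcnk4, Kcnk5, Kcnk10, Kcnk13, Kcnn1 and Kcnn2. All 4 Kcnip genes, whose products (KChIPs) bind the Kv4 channels, are among them, as is Kcnd2, a Kv4 pore subunit. Among genes with both marks in limb, 16 of 50 members and 1498 of 3816 genes had H3K4me3 alone in forebrain. Members with both limb marks were thus not more often in this state than such genes in general. All 5 KCNQ genes had H3K27me3 in both tissues. Much of the gap turned on the distance allowed: of the 20 members without a forebrain row within 1 kb, 10 had one within 2 kb. At 2 kb the counts were 57 members in limb and 48 in forebrain. A missing row is a row below the authors' threshold in that library, and the forebrain list (11073 rows, median width 990 bp) is shorter and narrower than the limb list (13137 rows, 2052 bp), so absence of the mark and lower sensitivity cannot be told apart.

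By role, limb H3K27me3 was at the start of 10 of 15 Kv pore genes, 3 of 7 modifiers, 6 of 6 EAG genes, 5 of 5 KCNQ genes, 5 of 6 ion-activated genes, 7 of 10 inward rectifiers, 9 of 11 tandem-pore genes and 10 of 15 auxiliary genes. In forebrain the counts were 7, 4, 3, 5, 2, 7, 4 and 5 in the same order. The inward rectifiers and the KCNQ genes thus had the same count in both tissues, the modifiers had 1 more in forebrain, and the other roles had fewer there.

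**Figure D2:**
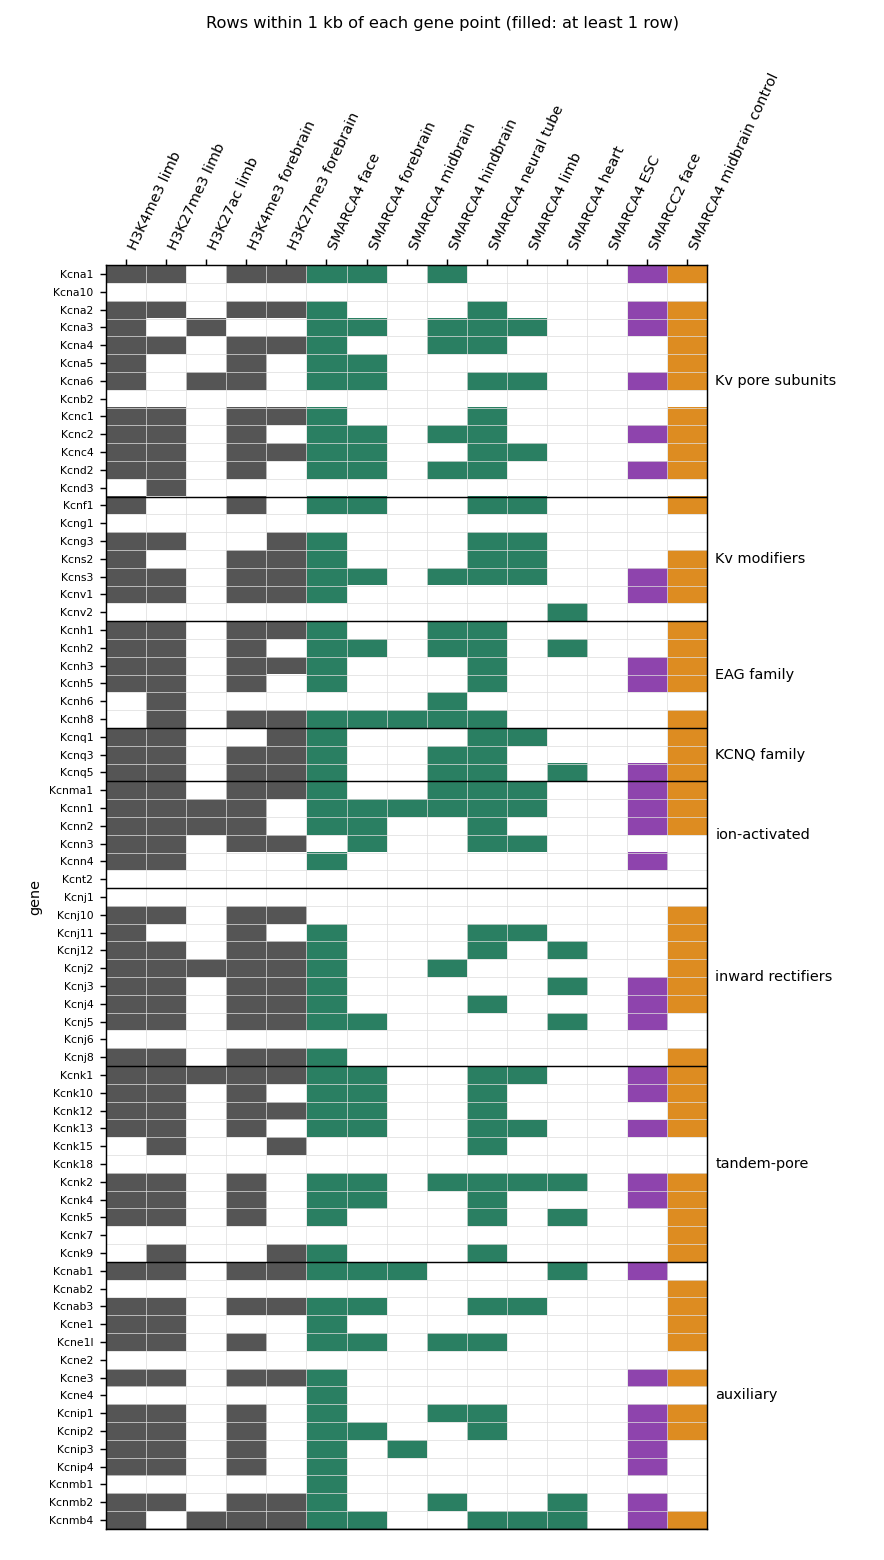
Each row is 1 of 71 of the 75 placed potassium channel genes, grouped by role, and each column a list. A filled cell has at least 1 row within 1 kb of the gene point (grey histone marks, green SMARCA4, purple SMARCC2, orange the SMARCA4 midbrain control). H3K27me3 covers 51 of these starts in limb and 33 in forebrain, and the SMARCA4 ESC column is empty.

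SMARCA4 lay within 1 kb of the gene point at 58 of 75 members in face (77.3%, background 71.4%), 27 in forebrain (36.0%, background 29.2%), 45 in neural tube (60%, background 52.4%) and 17 in limb (22.7%, background 25.4%). In hindbrain it did so at 22 (29.3%, 19.4% to 41.0%, background 17.3%) and in midbrain at 4 (5.33%, 1.47% to 13.1%, background 1.94%). Heart had 12 (16%, 8.55% to 26.3%, background 20.1%). ESC had none of 75, which allows a share of up to 4.8%, against a background of 6.21%, and the closest SMARCA4 ESC peak given to a member lay 1696 bp away. The background lies inside the counting interval in face, forebrain, midbrain, neural tube, limb and heart, and outside it, below, in hindbrain. In ESC it lies above the limit.

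The number of lists with a row at a start was close to that over all genes. Kcnk2 (TREK-1, a mechanosensitive leak channel) and Kcnn1 (SK1, a small-conductance calcium-activated channel) had a SMARCA4 row within 1 kb in 6 of the 8 lists (2.67% of members, all genes 3.10%). Kcna3, Kcnh2, Kcnh8, Kcnmb4 and Kcns3 were among those with one in 5 (8%, all genes 8.24%). No member had a row in 7 or 8 lists (all genes 0.456% in 7), and 12 had none in any, including Kcnb2, Kcnd3, Kcnj6 and Kcnj10. The share with none was 16%, and over all genes 22.7%. Kcnd3 and Kcnj6 had 2 points each, and only the one with most agreeing peaks was read. A region with rows of 4 SMARCA4 lists (face, forebrain, neural tube and limb) lay 4.36 kb from the Kcnd3 point used.

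Control lists hold rows at the same starts. The control of SMARCA4 midbrain had a row within 1 kb of 52 of 75 members (69.3%, background 63.7%), that of EP300 face of 45 (60%, background 62.6%), and that of NCOA2 hindbrain of 18 (24.0%, background 24.4%). The controls of NCOA1 hindbrain, SMARCC2 hindbrain and SMARCC2 face had 2 (background 2.44%), 1 (background 2.49%) and 0 (background 0.262%). Of the 45 starts with a neural tube row, 41 also had a row of the midbrain control, as had 8 of the 12 heart starts. No share over all genes is given for these overlaps. Among genes with both limb marks, the midbrain control had a row at 82.0% of members and 84.3% of all such genes. After removal of SMARCA4 rows that overlap any control or input row, 3 neural tube, 5 face, 2 forebrain, 6 hindbrain, 2 limb and 1 midbrain start remained, and 8 in heart. No share over all genes is given for this setting at 1 kb. Median row width was 333 bp in hindbrain and 353 bp in heart, but 2250 bp in neural tube and 3100 bp in forebrain. A wider row meets a control row more readily, so these counts are not compared across lists. What part of the start signal is particular to SMARCA4 was not tested.

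The start rows can be read individually where the tables give tags, the reads the authors counted in a peak. In hindbrain the strongest was Kcnn1, with 120 tags and a fold enrichment of 7.22, against a median of 17 tags in the list. Kcnd2 followed with 28 tags (17.2-fold), Kcnh2 had 26 (7.57-fold), and Kcnk2, Kcnc2 and Kcnj2 had 22 each (8.30-fold, 10.8-fold and 11.7-fold). The rows of Kcnc2 and Kcnj2 overlap no control or input row, and those of Kcnn1, Kcnd2, Kcnh2 and Kcnk2 do. Among the KCNQ genes, Kcnq3 had 11 tags at its start and Kcnq5 had 10. In heart the start rows ran from 18 to 57 tags against a list median of 37, with Kcnmb4 at 57, Kcnk2 at 52 and Kcnj5 at 49. Kcnj5 (GIRK4) and Kcnj3 (GIRK1, 18 tags) form the acetylcholine-gated rectifier of the atrium, and both had a heart row at the start. The Kcnj3 row was the lowest of these rows and overlaps 1 control or input list, and that of Kcnj5 overlaps none.

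The other factors divided sharply. SMARCC2 in face was within 1 kb of 33 of 75 members (44.0%, 32.6% to 55.9%, background 25.3%), and all 33 also had a SMARCA4 face row, as did 95.2% of all genes with a SMARCC2 face start row. Of the 63 SMARCC2 face rows given to members, 43 overlap a control or input row. EP300 in face was at none of 75 (background 18.6%), NCOA1 in hindbrain at none (background 4.99%), NCOA2 in hindbrain at 2 (2.67%, 0.325% to 9.30%, background 20.4%), namely Kcnc1 and Kcnk2, and SMARCC2 in hindbrain at 1 (background 0.487%). EP300 in ESC was at 26 (34.7%, background 33.1%). A count of 0 of 75 allows a share of up to 4.0%.

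For EP300 face, NCOA2 hindbrain, limb H3K27ac and SMARCC2 face, the difference from the background was smaller among genes in the same histone state. Among genes with H3K4me3 and H3K27me3 in limb, EP300 face was at 0 of 50 members and 5.63% of the 3816 genes, NCOA2 at 2 of 50 and 14.2%, H3K27ac limb at 4 of 50 (8%) and 32.6%, and SMARCC2 face at 30 of 50 (60%) and 54.4%. SMARCA4 hindbrain was at 19 of 50 (38.0%, 24.7% to 52.8%) and 22.6%, so that gap stayed. SMARCA4 in face, forebrain and neural tube was at 94.0%, 42.0% and 72.0% of the 50 members and at 92.6%, 43.3% and 75% of the genes. At the 13 members with neither mark in limb, SMARCA4 had a row in face at 2 (Kcne4 and Kcnmb1), in heart at 1 (Kcnv2) and in no other list.

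Within 100 kb to each side, the members' surroundings were poorer in rows of several lists than those of genes in general. SMARCA4 heart and limb, EP300 face, NCOA2 hindbrain and limb H3K27ac were among these lists. SMARCA4 heart had a row there at 44 of 75 members (58.7%, 46.7% to 69.9%, background 74.4%) and limb at 37 (49.3%, 37.6% to 61.1%, background 63.5%). Face had 74 (98.7%, background 98.0%), neural tube 66 (88.0%, background 90.1%), forebrain 50 (66.7%, background 71.8%), hindbrain 47 (62.7%, background 58.9%), midbrain 12 (16%, background 19.8%) and ESC 40 (53.3%, background 61.2%). The mean number of rows per gene was 1.65 for members and 2.30 for all genes in heart, 2.61 and 2.87 in neural tube, and 0.947 and 0.935 in hindbrain. EP300 face had a row within 100 kb of 24 of 75 members (32.0%, 21.7% to 43.8%, background 52.6%). NCOA2 hindbrain had one at 23 (30.7%, 20.5% to 42.4%, background 53.0%). Limb H3K27ac had a row at 49 of 75 (65.3%, background 88.9%), whereas H3K27me3 had 71 in limb (94.7%, background 72.7%) and 62 in forebrain (82.7%, background 60.2%).

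The controls measured the same way gave 74 of 75 for EP300 face (background 96.9%), 71 for SMARCA4 midbrain (background 94.2%), 42 for NCOA2 hindbrain (56.0%, background 71.3%), 14 for NCOA1 hindbrain (background 21.5%), 11 for SMARCC2 hindbrain (background 14.7%) and 7 for SMARCC2 face (background 11.9%). The NCOA2 control thus also lies below its background, by about as much as heart. The members' surroundings also hold fewer genes: the median number of other gene points within 100 kb was 1 for members and 2 for all genes. Among the 25 members with no other gene point there, heart had a row at 44.0% and the background was 46.6%. With 1, with 2 or 3, and with 4 or more other genes the shares were 56.3%, 66.7% and 76.9%, against backgrounds of 66.9%, 80.2% and 89.3%. The part of gene density in the lower heart share was not tested further.

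Counted as distinct rows per 1000 rows of a list, so that a row near several members counts once, heart had 8.22 (6.77 to 9.88; 113 rows), forebrain 14 (11.4 to 17; 103 rows), neural tube 12.9 (11.1 to 14.9; 185 rows) and hindbrain 12.3 (9.51 to 15.6; 67 rows). Limb had 11.2 (8.55 to 14.5), midbrain 9.91 (5.55 to 16.4), face 9.72 (8.71 to 10.8) and ESC 9.17 (7.03 to 11.8). These values hold how far each list lies from genes in general, so no order of tissues is read from them. The mean number of rows within 100 kb was 1.65 for members and 2.30 for all genes in heart, 2.61 and 2.87 in neural tube, and 0.947 and 0.935 in hindbrain.

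**Figure D3:**
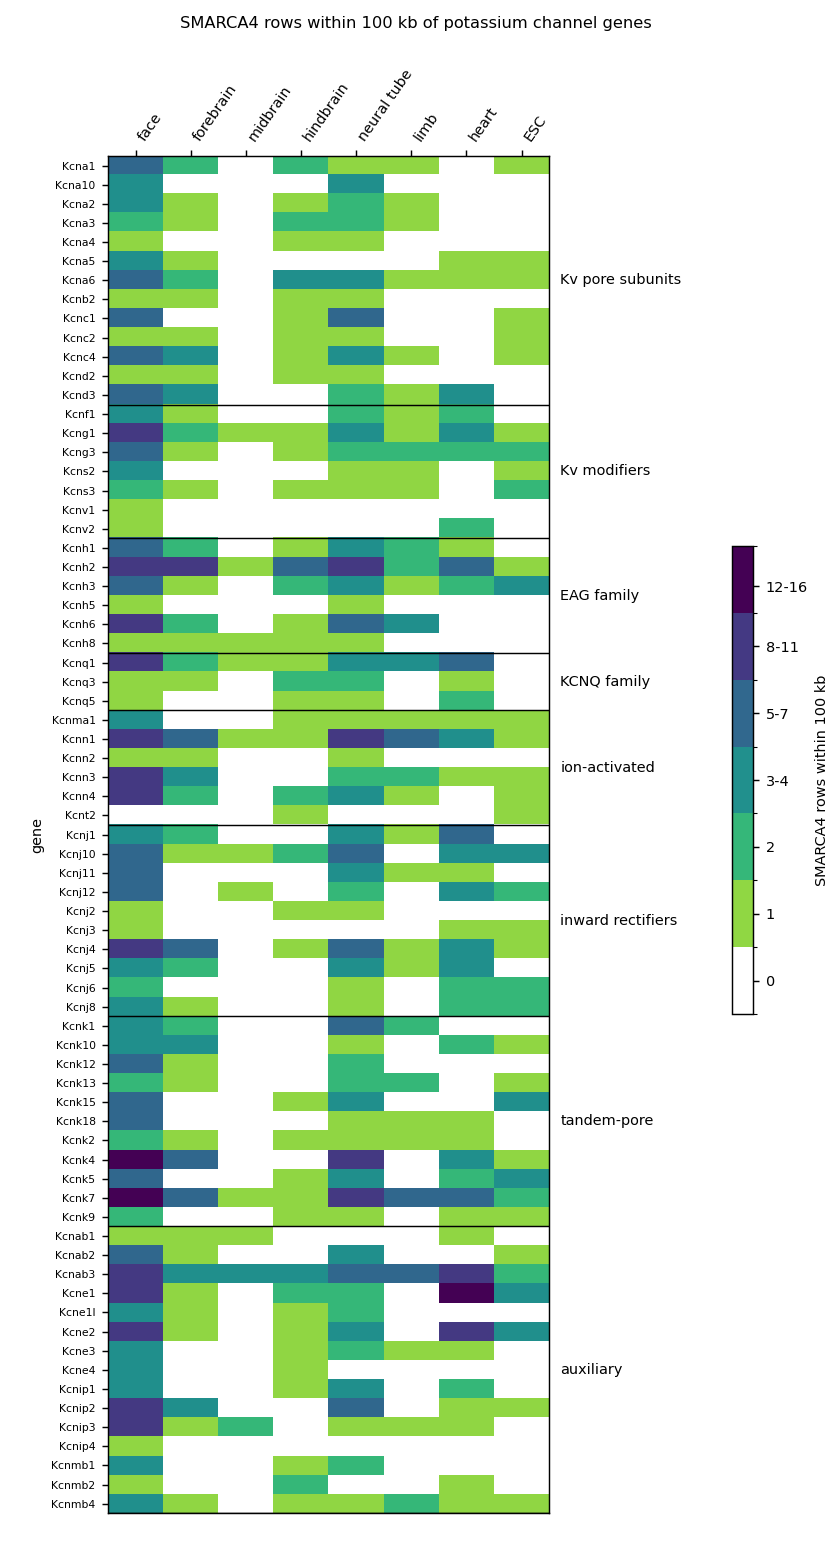
Number of SMARCA4 rows within 100 kb of 71 of the 75 placed potassium channel genes (rows, grouped by role) in the 8 SMARCA4 lists (columns). White is 0. Heart is white at 10 of the 13 Kv pore genes drawn and filled at 9 of 10 inward rectifiers, and the highest heart count is 15 at Kcne1.

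At least 1 of the 4 neural lists (forebrain, midbrain, hindbrain and neural tube) had a row within 100 kb of 71 of 75 members (94.7%, background 94.2%). Heart had one at 44 (58.7%, background 74.4%). The neural share was thus at the background, and the heart share lay below it. The higher share of members with neural and no heart rows within 100 kb therefore goes with the lower heart share, not with a higher neural share. A row within 100 kb in a neural list and none in heart was found at 29 of 75 (38.7%, 27.6% to 50.6%, background 21.6%). The reverse was found at 2 (2.67%, background 1.77%), Kcnj3 and Kcnv2, both were found at 42 (56.0%, 44.1% to 67.5%, background 72.6%) and neither at Kcnip4 and Kcnv1. At the start itself, within 1 kb, 43 members were neural without heart (57.3%, 45.4% to 68.7%, background 43.3%) and 2 were heart without neural (2.67%, background 3.41%), again Kcnj3 and Kcnv2. Without rows that overlap a control or input row, 3 neural tube, 2 forebrain, 6 hindbrain and 1 midbrain start remained, and 8 in heart. Most of the 43 thus rest on rows that overlap a control or input row. The neural set is 4 lists against 1, which the background carries too. With the neural tube list alone, 45 members had more rows in neural tube than in heart (60%, background 53.5%) and 17 had more in heart (22.7%, background 26.7%), so the count of rows differed less from the background than the presence of any row. When rows that overlap a control or input row were removed, the neural share without heart was 29.3% of members and 16.8% of all genes, and members with heart rows and no neural row numbered 13 in place of 2. These 13 were 17.3% of members, and 19.8% of all genes were of that kind, so this share was near the background.

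The contrast was not even over the roles. Of the 15 Kv pore genes, 11 had a neural row and no heart row (73.3%, 44.9% to 92.2%), and 1 of the 10 inward rectifiers did (10%, 0.253% to 44.5%). These intervals narrowly miss each other, but they treat genes as independent, and the pair of roles was picked after the values were seen. Neighbours such as Kcna2, Kcna3 and Kcna10, within 146.7 kb, or Kcnj1 and Kcnj5, 49.7 kb apart, can share rows. No difference between the roles is therefore read from the intervals. Kcna5, Kcna6 and Kcnd3 were among the 4 Kv pore genes with a heart row, and the inward rectifier without one was Kcnj2. The other roles had 3 of 6 (EAG), 1 of 5 (KCNQ), 3 of 6 (ion-activated), 2 of 7 (modifiers), 4 of 11 (tandem-pore) and 4 of 15 (auxiliary). The Kcnc genes, which encode the fast Kv3 channels of rapidly firing neurons, had together 0 heart rows, 17 in neural tube, 22 in face, 7 in forebrain and 4 in hindbrain. The 7 Kcna genes had 2 heart rows and 12 in neural tube. The 10 Kcnj genes had 24 and 26, and the 5 Kcne genes 24 and 9. Rows near several genes of a subfamily count for each of them here, and 8 pairs of members lie under 200 kb apart.

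**Figure D4:**
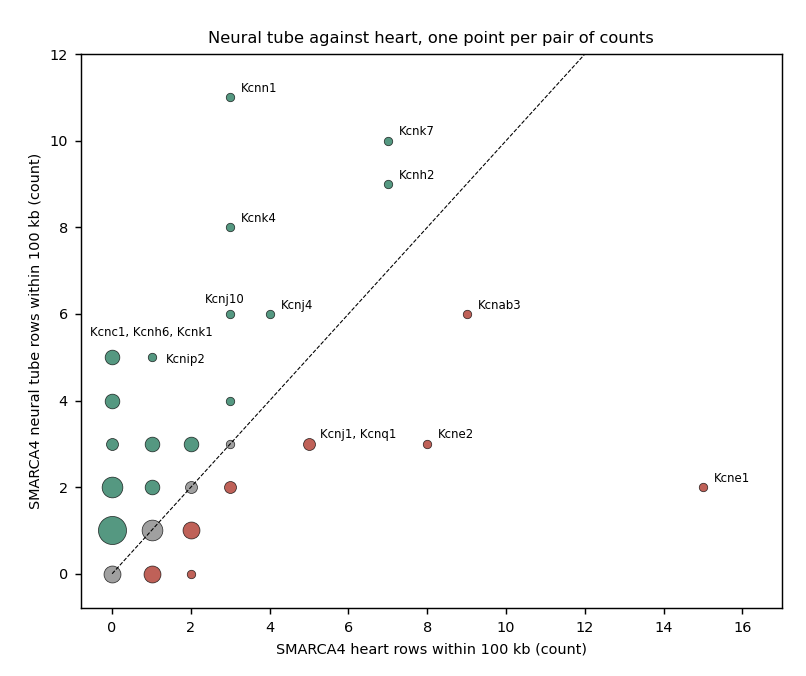
SMARCA4 heart rows (horizontal axis) and neural tube rows (vertical axis) within 100 kb of 71 of the 75 placed potassium channel genes. Point area is the number of genes with that pair of counts, the dashed line marks equal counts, green is more in neural tube, red more in heart. Kcne1 (15 heart, 2 neural tube) lies farthest to the heart side and Kcnn1 (3 heart, 11 neural tube) farthest to the neural side.

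The members known for a role in heart and in neurons were read as lists, both fixed with earlier results known. Whether the lists differ from each other was not tested. The 14 placed genes of the cardiac repolarisation list (Kcnk3 had no point) had heart rows at 12 and neural rows at 13. The 17 placed genes of the neuronal list (Kcnj9, Kcnt1 and Kcnh7 had no point) had heart rows at 8 and neural rows at 17. Over all genes the shares were 74.4% with a heart row and 94.2% with a neural row. Summed over genes, the cardiac list had 50 heart rows and 35 neural tube rows, and the neuronal list 16 and 42. Without Kcne1 and Kcne2 the cardiac list had 27 heart rows and 30 neural tube rows, so its excess in heart rests on these neighbours. Kcnj2 (Kir2.1, the main rectifier of ventricular muscle) and Kcnd2, which is in both lists, were the cardiac genes with a neural row and no heart row. Of the neuronal genes 9 were of that kind, Kcna1, Kcna2, Kcna4, Kcnb2, Kcnc1, Kcnc2 and Kcnd2 among them.

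Kcne1 encodes MinK, the partner of Kcnq1 in the slow cardiac current, and Kcne2 encodes MiRP1. Their points lie 66.5 kb apart on chromosome 16. Within 100 kb of Kcne1, SMARCA4 had 9 rows in face, 1 in forebrain, 0 in midbrain, 2 in hindbrain, 2 in neural tube, 0 in limb, 15 in heart and 3 in ESC. Kcne2 had 8, 1, 0, 1, 3, 0, 8 and 4 in the same order. All 8 heart rows of Kcne2 are among the 15 of Kcne1. The mean over all genes was 5.98 rows in face, 2.87 in neural tube and 2.30 in heart.

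The authors name Kcne1 as the nearest gene of 4 of the 15 rows, Kcne2 of 1 and Rcan1, a calcineurin regulator beyond Kcne1, of 7. Their tags ran from 23 to 268 with a median of 53, above the list's median of 37 at 9 of 15. Of the 15, 10 overlap no other SMARCA4 list and 3 overlap a control or input row. The strongest of those given to Kcne1 (chr16:92341025-92341939 in mm9, 17.7 kb from its point) had 132 tags at 5.17-fold. The 2 with most tags, 268 (chr16:92399661-92401488) and 235 (chr16:92427565-92430293), are given to Rcan1.

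Kcnq1 (KvLQT1) had 10, 2, 1, 1, 3, 3, 5 and 0 SMARCA4 rows in the order of lists given for Kcne1. Of the 3 heart rows given to Kcnq1 as nearest gene, the strongest lie 17.6 kb and 47.4 kb from the point, with 101 and 90 tags. Kcnh2, the hERG channel of the rapid cardiac current that is also active in neurons, had 10, 9, 1, 5, 9, 2, 7 and 1 in that order. Kcnh2 is the nearest gene of 5 of its 7 heart rows and of all 5 hindbrain rows. The strongest heart row given to it (chr5:23849328-23849874, 7.98 kb from the point) had 52 tags, and its start had rows in face, forebrain, hindbrain, neural tube and heart. Limb H3K27me3 covered 11.8 kb around this start, against 0.759 kb in forebrain.

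Kcnn1 had the largest difference to the neural side, with 10, 5, 1, 1, 11, 5, 3 and 1 rows in the same order. A row within 1 kb of its start was found in 6 of the 8 SMARCA4 lists, heart and ESC being the exceptions, and spanned 2076 bp in hindbrain (120 tags) and 3195 bp in midbrain (224 tags, with the authors' false discovery rate at 100%). A heart row of 454 bp and 46 tags had its summit 1.84 kb from the point. SMARCC2 in face had 224 tags there. The controls of EP300 face and SMARCA4 midbrain had rows over the same start, with 34 and 35 tags. Both limb H3K4me3 and limb H3K27me3 covered it, with limb H3K27ac, whereas forebrain had H3K4me3 without H3K27me3. Kcnc1, Kcnh6, Kcnk1 and Kcnk4 were also far to the neural side. Kcnc1, Kcnh6 and Kcnk1 had 5 rows in neural tube and 0 in heart each, and Kcnk4 8 and 3.

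On the heart side, Kcne1 and Kcne2 were followed by Kcnab3 (6 rows in neural tube, 9 in heart), Kcnj1 and Kcnq1 (3 and 5 each) and Kcnv2 (0 and 2). Kcnab3, a beta subunit of Kv1 channels, lies among 7 other gene points, and none of its 9 heart rows has it as nearest gene. The same holds for the 7 heart rows of Kcnk7, which has the most SMARCA4 rows of all members (16, 6, 1, 1, 10, 5, 7 and 2 in the order of lists given for Kcne1) and the most gene neighbours (10). Kcna5 and Kcnab1 had 0 rows in neural tube and 1 in heart. Of the 44 members with a heart row within 100 kb, 31 are the nearest gene of at least 1 of them.

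Some members rich in rows were less one-sided, such as Kcnj4 (Kir2.3) with 6 rows in neural tube and 4 in heart. Kcnab2, a Kv1 beta subunit, had 4 in neural tube and 0 in heart. Kcnip3 had 11 rows in face but 1 each in neural tube and heart, so a high count in the longest list did not carry over to the others.

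Kcnk9 (TASK-3, an imprinted leak channel of the brain) stood apart by a distal site. At about 22.4 kb from its point (chr15:72398842-72399350), 7 FLAG lists held a row and no control, input or histone list did. It ranked 24 of 3589 in EP300 face with 179 tags and 166-fold enrichment, 8 of 6764 in SMARCA4 ESC with 56 tags and 82.6-fold, and 94 of 13755 in SMARCA4 heart with 65 tags and 9.73-fold. EP300 ESC had 13 tags and 48.5-fold, NCOA2 hindbrain 28 tags and 35.8-fold, below its list's median of 36 tags, and NCOA1 hindbrain 32 tags and 9.55-fold. In SMARCA4 face the site was near the end of the list, at rank 33784 of 35099. At the Kcnk9 start itself H3K27me3 lay in limb and forebrain without H3K4me3. The fold and rank are the authors' values, and a rank holds within its list.

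Merged over the 8 lists, SMARCA4 rows within 100 kb of a member formed 497 regions. Of these, 294 (59.2%) came from 1 list, 150 of them from face, 50 from heart, 46 from ESC and 31 from neural tube. Of the 294, 58 overlapped a control or input row, as did 20 of the 21 regions in 5 lists and all 7 in 6 lists. Rows of 7 lists were joined in 2 regions, one of them a stretch of 6050 bp over the Kcnn1 start, and no region held rows of all 8. Such regions were not counted over all genes, so nothing particular to the members is read from these counts.

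Promoter sequences were in the RefSeq table for 62 of the 82 members and 57 of the 75 placed. The count of CG in 300 bases, taking the promoter with most where a gene has several, had a median of 17 over these 57 with a range of 0 to 49, and of 21 over the 8145 placed genes with a sequence. Members with both limb marks had a median of 17.5 (38 genes, 4 to 49), those with H3K27me3 alone 24 (4 genes, 21 to 25), those with H3K4me3 alone 8 (5 genes, 3 to 48) and those with neither 9 (10 genes, 0 to 30). The medians over all genes were 22, 12, 24 and 7 for the same states. The ranges overlap widely. The promoter counted need not be the start at which the state was read. Kcnj6, with 30 CG among those with neither mark, has another RefSeq promoter with 9. The 47 with a SMARCA4 row within 1 kb in any list had a median of 17 and the 10 without a median of 11.

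The GC box CCGCCC, sought on both strands, occurred in 39 of 57 members (68.4%), in 67.5% of the 8145 placed genes and in 38.2% of all 27025 symbols in the table. GATAA occurred in 12 (21.1%, placed genes 19.3%, all 28.4%). TATAAA was found in 1 of 57 (1.75%, placed genes 9.33%, all 15.7%), Kcnab1. No motif contains another, and a match is a match of letters only.

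**Figure D5:**
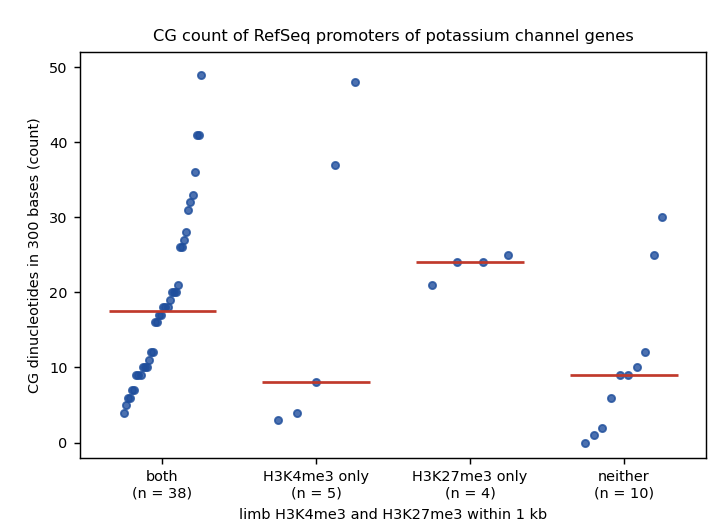
Count of CG dinucleotides in the 300-base RefSeq promoter of 57 placed potassium channel genes (points, spread sideways in rising order for visibility), by the limb H3K4me3 and H3K27me3 state at the gene point, with the median as a red line. The medians are 17.5, 8, 24 and 9, and the groups overlap.

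Other channels of excitable cells gave similar shares at the start for limb H3K27me3 and a lower one in heart, with no test of either. Of 36 sodium, calcium and pacemaker channel genes listed, 27 had a point. Limb H3K27me3 was within 1 kb of 20 of these (74.1%), limb H3K27ac of 6 (22.2%), SMARCC2 face of 17 (63.0%), SMARCA4 neural tube of 17 (63.0%), hindbrain of 5 (18.5%) and heart of 1 (3.70%). Within 100 kb, heart had a row at 19 of 27 (70.4%), nearer to the 74.4% of all genes than the 58.7% of the potassium channels. Of the 8 placed partner genes that encode no potassium channel subunit of this name, such as Dpp6 and Dpp10 (Kv4 partners) and Abcc8 and Abcc9 (sulfonylurea receptors), 7 had limb H3K27me3, 6 a neural tube and 1 a heart SMARCA4 row within 1 kb.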

How the data were processed

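Peak lists of 30 of 34 samples were used. Per the submitters' processing notes, reads were mapped with BWA to mm9. The version and the peak caller are not given in the sources used here. Per the file headers, 16 tables give each peak's tags (read count), maximum depth, score, fold enrichment ratio, false discovery rate in percent, conservation score and nearest gene with distance. The other 14 deposited lists give positions and rank. Starts are printed 1-based (start plus 1). Library depth is unknown.

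The members and lists were chosen with earlier results of these data known. A gene point is the position (summit plus or minus distance) on which most peaks, at least 2, agree; 17 members had several. A gene enters only if it has such peaks, which holds for the background too. A row counted as near if any base lay within 100 kb or 1 kb. The point finder and the counter were tested on simulated data. Named are the 10 members with most SMARCA4 rows, the top 3 per list, the 8 with the largest neural tube minus heart difference in each direction, starts held in at least 5 lists, and the cardiac and neuronal lists. Others named were chosen after their values were seen. Of the genes with a point, 4 count in totals and are not reported here by name or drawn by gene. Alternatives were other distances, midpoints, lists cut to equal length, and removal of control-overlapping or start rows. Analysis used Python 3.11.15, pandas 2.3.3, numpy 2.4.6 and scipy 1.17.1.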

Additional observations from a re-analysis of the deposited data

How the results depend on the processing

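Of 176 alternative values, 134 stayed within 1.5 times of the value reported. The choices that moved the others were as follows. Without rows that overlap a control or input row, members with a SMARCA4 row within 100 kb were 32 in neural tube, 18 in forebrain, 22 in hindbrain, 10 in limb and 4 in midbrain, and within 1 kb 5 in face, 3 in neural tube, 2 in forebrain, 6 in hindbrain, 2 in limb and 1 in midbrain, with 13 members heart without neural. Without rows within 1 kb of any gene point, the 100 kb counts were 39 in neural tube, 23 in forebrain, 21 in hindbrain, 11 in limb and 5 in midbrain, with 7 members heart without neural. With each list cut to its 5251 top rows, as many as limb has, the 100 kb counts were 41 in face, 22 in heart and 42 in neural tube, the 1 kb counts 18 in face, 4 in heart and 19 in neural tube, and 47 members were neural without heart and 1 heart without neural. At 200 kb, 15 members were neural without heart, 1 heart without neural, and midbrain had a row near 24. Without neural tube in the neural set, or with it alone, 5 were heart without neural. At 2 kb, ESC had a row at 2 starts, and by midpoints midbrain had 2 starts. At 50 kb, rows per 1000 were 5.17 in ESC, 5.76 in face, 9.25 in forebrain, 4.8 in heart, 7.43 in limb, 8.36 in neural tube and 5.29 in midbrain, and the NCOA1 and SMARCC2 hindbrain controls had 9 and 6 members. These smaller values follow from fewer rows or a shorter distance by construction, and the background moves with them. In all 7 settings tried on both, the heart share of members lay below that of all genes. It ran from 29.3% against 49.3% with equal lists to 77.3% against 86.6% at 200 kb. The neural without heart share lay above that of all genes in each (from 20.0% against 11.7% to 62.7% against 39.1%). The share with any neural row lay on both sides of that of all genes. It was 90.7% against 85.5% with equal lists and 65.3% against 66.8% without start rows. Use of any of a gene's points, added after seeing the data, moved no count by over 1.5 times, nor did 2 kb for the histone rows, where H3K27me3 was at 57 members in limb and 48 in forebrain. No paired analysis was possible because each condition is 1 library. With 1 library per list and depth unknown, a missing row may lie below the threshold.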
